A study of Mus musculus with 19 samples.

Results

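The effect of deleting Foxd3 was compared between 2 pluripotent states of the mouse, epiblast-like cells (EpiLC) and naive embryonic stem cells (ESC). For each gene, the log2 change between tamoxifen (Tam) and ethanol (EtOH) samples was taken in EpiLC and in ESC, and the ESC change was subtracted from the EpiLC change. This difference of effects is positive where a gene moved further up, or less far down, in EpiLC than in ESC. It uses all 12 of the 12 samples of the series, read on 19 of 19 bead arrays, with 1 value per sample, and it was fitted for 9422 genes. Genes detected in both states were kept apart from genes detected in one state only, with detection set at a detection p-value under 0.01.

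The 4 groups hold 3 samples each: EpiLC given tamoxifen, EpiLC given ethanol, ESC given tamoxifen and ESC given ethanol. Tamoxifen was added at 1 µM for 36 h to induce the knockout, and the ethanol samples stand as wild type. All cells were cultured in Knockout DMEM with 15% FBS, and ESC also received Lif and 2i, a pair of inhibitors of the GSK3 and MEK kinases. The labels name neither the allele, the recombinase nor the clone behind the samples, and no sample without the floxed gene was given tamoxifen, so the drug and the deletion cannot be told apart. State and medium cannot be told apart either, since ESC alone had Lif and 2i. No label says whether the 3 samples of a group came from separate cultures, so the p-values cover only the spread among them, and that may be technical.

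Foxd3 is a forkhead transcription factor that is expressed in pluripotent cells and later in the neural crest. ESC in 2i resemble the epiblast before implantation, and EpiLC resemble the epiblast just after it, when naive factors such as Klf4 and Tbx3 go down and formative genes such as Fgf5 and Otx2 come up. A regulator that sits at different enhancers in the 2 states can have different targets in each, and this comparison asks which transcripts respond in one state and not, or not equally, in the other.

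The states carried their labels. Summed normalized intensity of 9 naive markers on the array was 12680 to 14040 in EpiLC Tam, 9464 to 11530 in EpiLC EtOH, 56870 to 58960 in ESC Tam and 55890 to 58470 in ESC EtOH. For 9 formative markers the sums were 44300 to 54610, 46050 to 51410, 17290 to 23670 and 16940 to 22550 in the same order, and Fgf5 was detected on 0 ESC arrays. Of 10 fibroblast markers, which a feeder layer would bring, 4 were detected in EpiLC and 2 in ESC, while Col1a1, Col1a2, Col3a1, Postn, Lum and S100a4 were detected in no group. Foxd3 itself has 1 probe, not above background on any of 19 arrays (smallest detection p-value 0.239), so its loss could not be followed and rests on the labels. Between 10330 and 11481 probes of 25697 were detected per array. Before normalization the ESC Tam arrays were brighter than the ESC EtOH arrays, with medians of 165.6 to 175.9 against 149.2 to 154.3 in hybridization round 1 and 205.8 to 219.7 against 192.8 to 205.7 in round 2. The EpiLC medians of round 1 overlapped, at 152.7 to 168.9 for Tam and 159.2 to 170.2 for EtOH.

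The deletion effect differed between the states for 244 of the 9422 genes (2.59%), at a Benjamini-Hochberg adjusted p under 0.05 from limma. Of these, 133 were higher (1.41% of genes tested) and 111 lower (1.18%), and 93 differed by at least 1 on the log2 scale. The unadjusted p was under 0.05 for 1590 genes. The smallest difference that was called was 0.43, against a median standard error (SE) of 0.187, so this fit, which does not pair the samples, called no smaller differences of effects. Without tamoxifen EpiLC sample 3 the count was 123. It was 119, 153 and 150 without ESC Tam sample 1, 2 or 3, and 134, 159 and 109 without ESC EtOH sample 1, 2 or 3. Same-numbered samples of a state deviated together, and a fit that blocks on these numbers called 1135 genes (12%), 549 higher and 586 lower, among them all 244. The arrays of round 1 alone called 82 genes, of which 77 were among the 244, and all 244 had the same sign there. Round 1 holds 11 of the 19 arrays, with every EpiLC EtOH array among them. The shared sign was thus nearly fixed in advance and is no replication. Round 2 holds no EpiLC EtOH array and gives no value of its own. Scaling to equal medians, and not to equal quantiles, gave a median difference of -0.18 over all genes, against -0.0097. The split then became 78 higher and 257 lower, 23.3% higher in place of 54.5%, with all 244 genes keeping their sign and 172 their call. The part of the ESC brightness in this split was not tested.

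The genes whose effect differed were mostly genes that moved in one state and had no call in the other. In EpiLC alone, tamoxifen raised 448 genes (4.75%) and lowered 203 (2.15%), and in ESC alone it raised 526 (5.58%) and lowered 331 (3.51%). Of the 244, 102 were called in EpiLC only, 117 in ESC only, 12 in both states in opposite directions and 8 in both in the same direction, and 5 were called in neither state alone. Calls in one state do not show a difference by themselves: of 469 genes called in EpiLC and not in ESC, the difference itself was called for 102 (21.7%), and of 675 called in ESC and not in EpiLC, for 117 (17.3%). A further 170 genes were called in both states in the same direction, 133 up and 37 down, and for 162 of these the difference was not called. Across genes, which are not independent replicates, the EpiLC and ESC effects correlated at a Pearson r of 0.319 and a Spearman rho of 0.265.

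**Figure D1:**
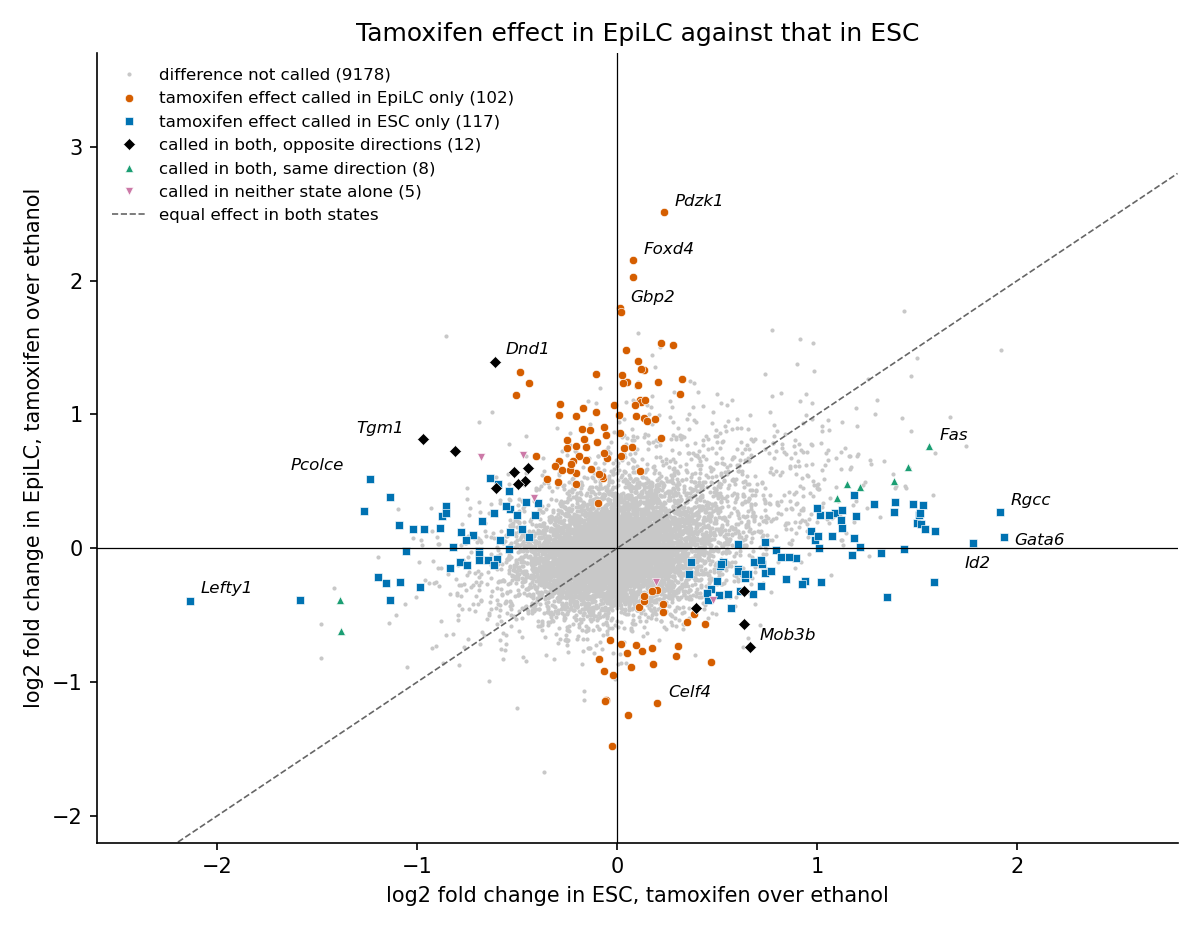
Log2 fold change of tamoxifen over ethanol in EpiLC (vertical axis) against that in ESC (horizontal axis) for 9422 genes, with 1 point per gene. Grey points had no call for the difference, the dashed line marks an equal effect in both states, and the 244 called genes lie mostly along one axis or the other, with 12 black diamonds in the quadrants of opposite sign.

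Among the 244 genes, the distance between the EpiLC and ESC means was narrower in Tam than in EtOH for 126 (51.6%) and wider for 118, against 52% narrower among all genes tested. The order of the states turned over for 59 of the 244 (24.2%), and for 15.7% of all genes. The difference of effects is the EpiLC-minus-ESC distance in Tam less that in EtOH. Genes picked by it therefore tend to turn over, and these shares are not a test. Dnd1 and Pdzk1 are among those that turned, with EpiLC below ESC in ethanol and above it in tamoxifen.

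Among genes detected in both states, 170 of 7667 (2.22%) had a called difference, 97 higher and 73 lower. Among those with a gene symbol, the largest positive value belonged to Pdzk1, a scaffold protein that anchors membrane transporters. Its normalized log2 intensity was 8.28, 8.33 and 7.85 in EpiLC Tam, against 5.57, 5.80 and 5.55 in EpiLC EtOH, and 6.58, 7.13 and 6.95 in ESC Tam, against 6.58, 6.88 and 6.51 in ESC EtOH. The EpiLC groups stood wide apart, while the ESC groups overlapped. The difference of effects was 2.28 (SE 0.24, n = 3 per group, adjusted p = 0.00173), a 4.86-fold larger ratio in EpiLC, although detection on only 1 of 3 EpiLC EtOH arrays makes that size depend on the background. Pisd-ps2, annotated as a pseudogene of a phospholipid decarboxylase and thus a probe that may share sequence with its parent gene, behaved alike in form, with 7.94, 7.60 and 7.78 in EpiLC Tam, against 6.33, 6.23 and 6.32 in EpiLC EtOH. In ESC it had 6.45, 5.97 and 6.34 in Tam, against 6.41, 6.11 and 6.09 in EtOH, and the difference of effects was 1.44 (SE 0.20, adjusted p = 0.00534). Acap1, which inactivates the small GTPase Arf6, had a difference of 1.68 (SE 0.24), with 6.64, 6.86 and 6.68 in EpiLC Tam, against 5.36, 5.77 and 5.35 in EpiLC EtOH. Detection on 1 of 3 EpiLC EtOH arrays makes this size, too, depend on the background. The ESC change of Acap1, at -0.44 (SE 0.17), had no call (adjusted p = 0.147), but was called with the block (0.0339). Ahnak, a very large scaffold protein, had a difference of 1.37 (SE 0.23), and Plcd1, a phospholipase C, one of 1.41 (SE 0.29). The ESC groups of Ahnak did not overlap, with 11.27, 11.49 and 11.66 in Tam, against 11.80, 11.79 and 11.69 in EtOH. Its ESC change was not called (-0.29, SE 0.16, adjusted p = 0.325). Plcd1 lost its call without any 1 of the 6 ESC samples and without EpiLC EtOH sample 1 or 3, with an adjusted p of up to 0.0725, and under equal medians (1.17, adjusted p = 0.0738).

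Of the other genes with large positive differences, some rose in EpiLC and some fell in ESC. Edn1, the vasoactive peptide endothelin 1, rose in EpiLC: 8.40, 7.77 and 8.76 in Tam, against 6.99, 6.92 and 7.06 in EtOH. In ESC it had 7.12, 7.44 and 7.04 in Tam, against 7.89, 7.48 and 7.68 in EtOH, groups that did not overlap but whose change was not called (-0.49, SE 0.21, adjusted p = 0.192). The difference of effects was 1.80 (SE 0.30, adjusted p = 0.0118). Lefty1, a secreted inhibitor of Nodal, had its positive difference from a fall in ESC. It had 7.11, 7.26 and 6.90 in ESC Tam, against 9.30, 8.96 and 9.42 in ESC EtOH, while in EpiLC it had 11.76, 11.71 and 11.61 in Tam, against 11.99, 12.22 and 12.05 in EtOH. Its difference of effects was 1.74 (SE 0.18, adjusted p = 0.00173). EpiLC hold far more Lefty1 signal than ESC, so on a linear scale the EpiLC decrease is the larger one and the difference of effects changes sign (-587.7 units of normalized intensity). Pcolce, an extracellular enhancer of procollagen processing, likewise fell in ESC: 8.43, 8.89 and 8.89 in Tam, against 9.86, 10.01 and 10.06 in EtOH. In EpiLC it had 7.26, 7.00 and 7.36 in Tam, against 6.89, 6.48 and 6.71 in EtOH, groups that did not overlap. That rise of 0.52 (SE 0.15) had no call (adjusted p = 0.064), but was called with the block (0.00757). The difference of effects was 1.76 (SE 0.21, adjusted p = 0.00334).

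Of the 10 most negative differences, 9 came from genes that rose in ESC and had no call in EpiLC. The exception, Mob3b, fell in EpiLC and is described with the genes of opposite sign. Gata6, the transcription factor that specifies primitive endoderm, had 6.77, 6.86 and 7.19 in EpiLC Tam, against 6.98, 6.95 and 6.65 in EpiLC EtOH, and 8.77, 8.06 and 8.91 in ESC Tam, against 6.71, 6.33 and 6.91 in ESC EtOH. Only the ESC groups stood apart, and the difference of effects was -1.85 (SE 0.31, adjusted p = 0.0125). Fgfbp3, a carrier protein for fibroblast growth factors, had 7.78, 7.99 and 7.62 in ESC Tam, against 6.37, 6.21 and 6.06 in ESC EtOH, and a difference of -1.84 (SE 0.22, adjusted p = 0.00334). Rgcc, a regulator of the cell cycle, had 7.69, 8.16 and 8.29 in ESC Tam, against 5.83, 6.30 and 6.26 in ESC EtOH, and a difference of -1.64 (SE 0.23). For both genes the EpiLC effect had no call, at -0.26 (SE 0.16) for Fgfbp3 and 0.27 (SE 0.16) for Rgcc, though with the block Rgcc was called there (adjusted p = 0.0384).

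Id2, which blocks helix-loop-helix transcription factors, was already present in EpiLC, at 7.48, 7.60 and 7.13 in Tam, against 7.39, 7.22 and 7.50 in EtOH. In ESC it had 6.95, 7.13 and 6.48 in Tam, against 5.39, 5.08 and 4.75 in EtOH, where it was detected on 0 of 5 arrays, so it was at least 1.86-fold higher with tamoxifen (adjusted p = 0.000325). Eef1a2, a translation elongation factor of muscle and neurons, had the same form: detected on 0 of 5 ESC EtOH arrays, it was at least 1.86-fold higher in ESC Tam (adjusted p = 0.00118). The fitted differences of effects, -1.74 (SE 0.28) for Id2 and -1.71 (SE 0.27) for Eef1a2, depend on the background of those arrays. With the block the EpiLC effect of Eef1a2 was called too (adjusted p = 0.0285). Such bounds divide the mean of the detected group by a floor, the lowest signal detected on each array of the undetected one.

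Pmaip1, a pro-apoptotic protein induced by p53, had 8.93, 9.17 and 8.65 in EpiLC Tam, against 8.85, 9.04 and 8.47 in EpiLC EtOH, and 7.89, 7.61 and 7.56 in ESC Tam, against 6.21, 6.15 and 5.92 in ESC EtOH, where 3 of 5 arrays detected it. With tamoxifen ESC thus came closer to the EpiLC level, and the difference of effects was -1.46 (SE 0.24, adjusted p = 0.0118). Gpnmb, a transmembrane glycoprotein, had a difference of -1.40 (SE 0.21), and Hsd17b1, which reduces estrone to estradiol, one of -1.36 (SE 0.18). The uncharacterised AA467197 had -1.31 (SE 0.27), and lost its call without EpiLC Tam sample 2 or 3, EpiLC EtOH sample 1, ESC Tam sample 1 or 3, or ESC EtOH sample 1 or 2, with an adjusted p of up to 0.0756.

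**Figure D2:**
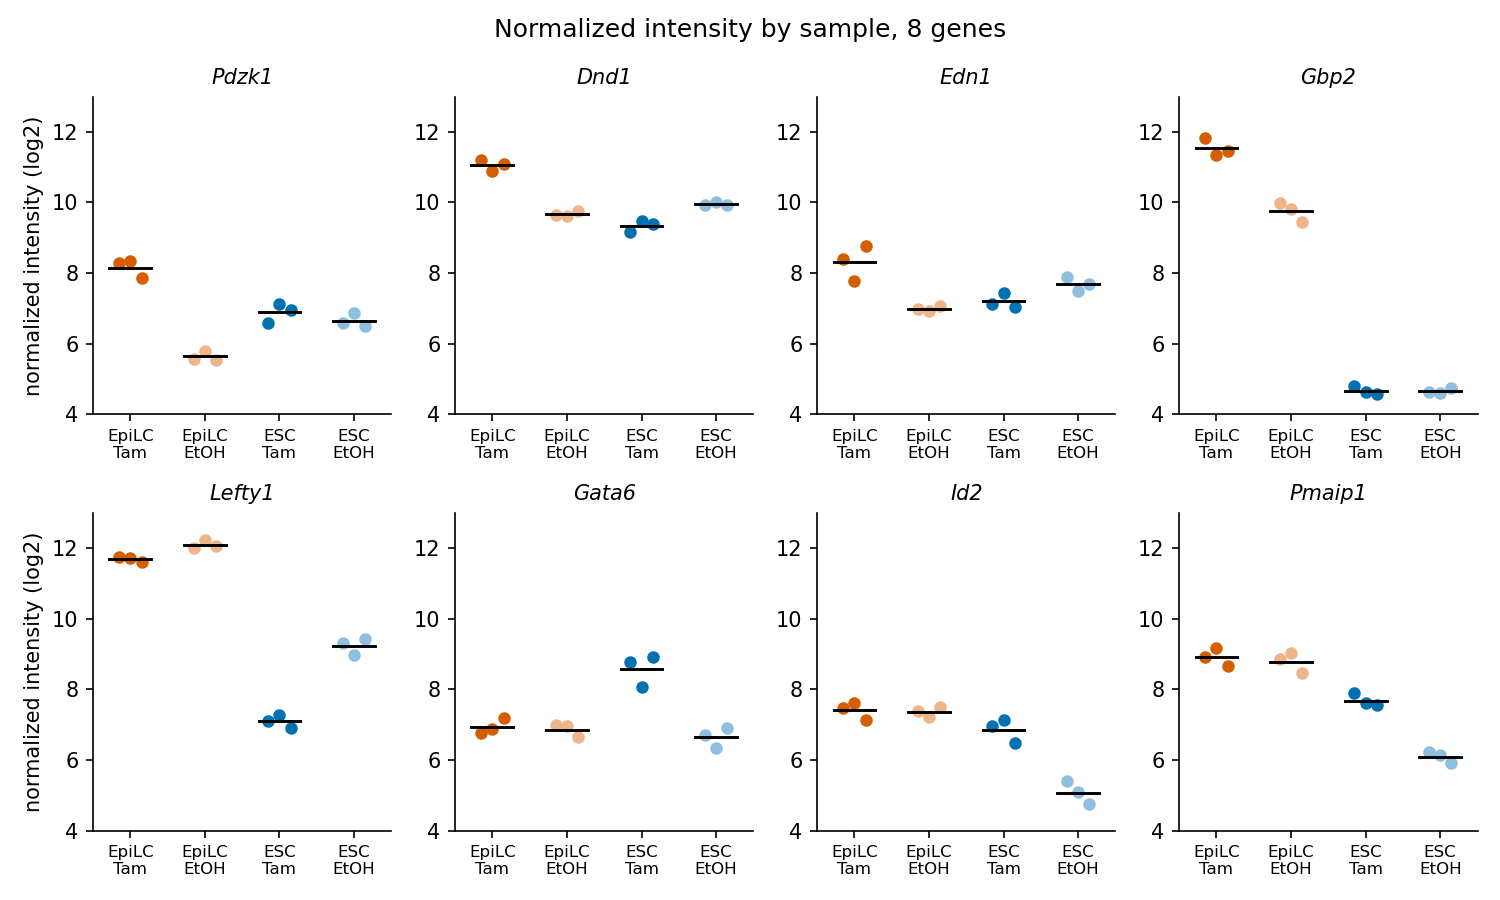
Normalized log2 intensity of 8 genes in each of the 12 samples (points), with the group means as lines, in the order EpiLC Tam, EpiLC EtOH, ESC Tam and ESC EtOH. Tam and EtOH overlap in ESC for Pdzk1 and Gbp2 and in EpiLC for Gata6, Id2 and Pmaip1, while for Dnd1, Edn1 and Lefty1 they stand apart in both states.

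In 12 genes the deletion was called in both states with opposite signs, and the difference was called in all 12. Dnd1, an RNA-binding protein needed for germ cells, stood first. It had 11.20, 10.89 and 11.07 in EpiLC Tam, against 9.65, 9.61 and 9.74 in EpiLC EtOH, and 9.15, 9.49 and 9.39 in ESC Tam, against 9.92, 10.01 and 9.93 in ESC EtOH. The groups did not overlap within either state. Dnd1 rose by 1.39 in EpiLC and fell by 0.61 in ESC (SE 0.11 each), a difference of 2.00 (SE 0.15, adjusted p = 0.000284). Tgm1, a transglutaminase that crosslinks the skin barrier, had means of 5.78 in EpiLC Tam and 4.96 in EpiLC EtOH, and 8.21, 8.55 and 8.10 in ESC Tam, against 9.20, 9.34 and 9.23 in ESC EtOH. Its difference was 1.78 (SE 0.15), but it was detected on 2 of 5 EpiLC Tam and 0 of 3 EpiLC EtOH arrays, so no fold is given for EpiLC.

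The other 10 genes of opposite sign had smaller differences. A rise in EpiLC with a fall in ESC was shared by 1190005I06Rik at 1.54 (SE 0.24), the deubiquitinase Usp11 at 1.09 (SE 0.20), Irak3, which dampens Toll-like receptor signals, at 1.06 (SE 0.15), and the kinase Alpk3 at 1.05 (SE 0.11). The same held for S1pr2, a receptor for sphingosine 1-phosphate, at 0.97 (SE 0.13), and for Mapt, the microtubule-associated protein tau, at 0.97 (SE 0.15). The 4 that fell in EpiLC and rose in ESC were Mob3b, of the Mob kinase-adaptor family, at -1.40 (SE 0.25), Pgm2l1, a glucose 1,6-bisphosphate synthase, at -1.20 (SE 0.20), Mapre2, which binds microtubule ends, at -0.96 (SE 0.12), and the extracellular guidance protein Reln at -0.84 (SE 0.15). The differences between same-numbered samples had the group's sign in all 3 pairs of each state for each of the 12 genes. The 12 were chosen by calls of opposite sign in these same samples. This agreement, like the called difference in all 12, thus largely follows from the choice and is no further support. Reln counted as detected in EpiLC only, with 5.10, 5.12 and 5.09 in ESC Tam, against 4.62, 4.66 and 4.84 in ESC EtOH, so its ESC rise lies at background. Pgm2l1 was detected on 1 of 5 EpiLC Tam and 0 of 5 ESC EtOH arrays, so both of its effects depend on the background. Usp11 was detected on 1 of 6 ESC Tam arrays, and lost its call without ESC EtOH sample 3, at an adjusted p of 0.0576.

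**Figure D3:**
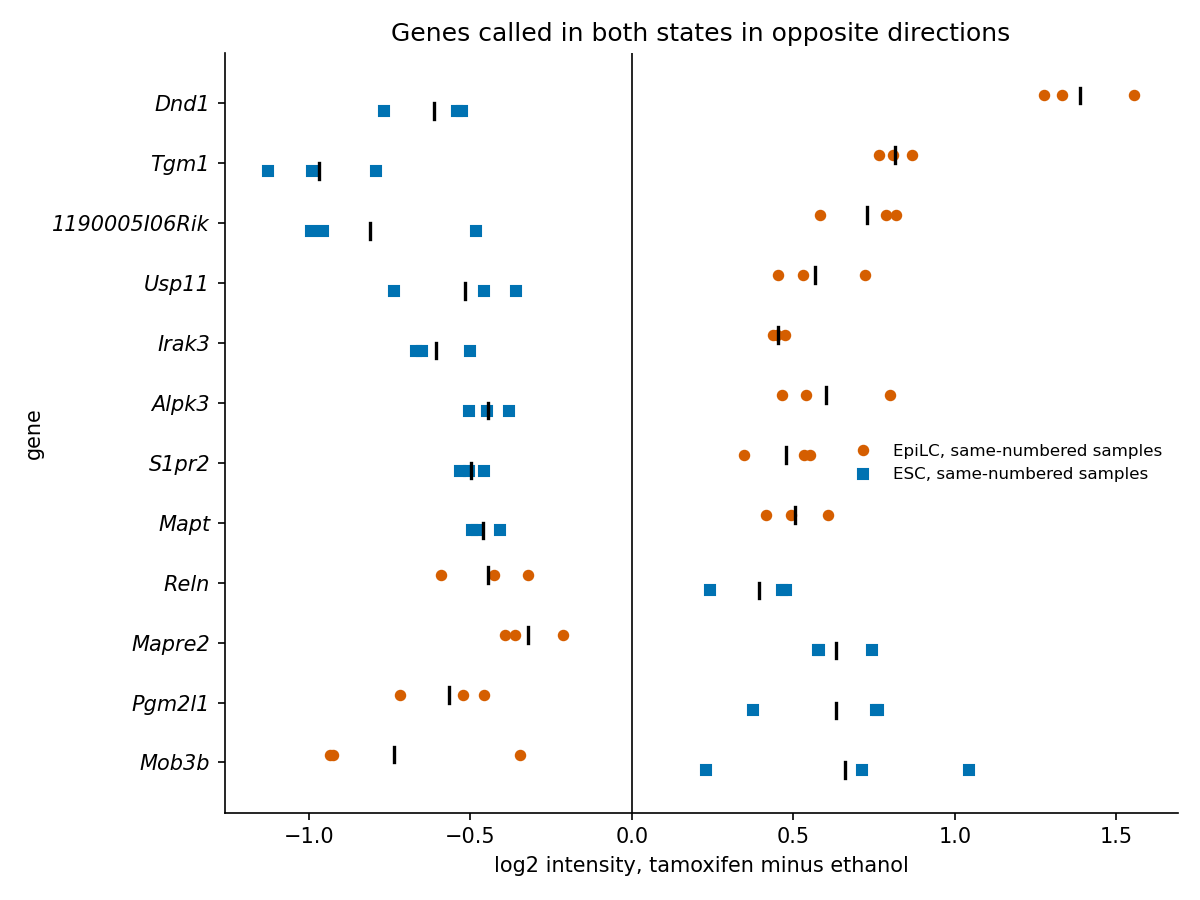
Log2 intensity in tamoxifen minus that in ethanol for the 12 genes called in both states in opposite directions. Each point is a pair of same-numbered samples (circles EpiLC, squares ESC), the short lines are means, and the points of the 2 states lie on opposite sides of 0 for every gene. The genes were chosen by these signs in the same samples.

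Genes detected in EpiLC only gave 43 called differences among 607 tested (7.08%), 21 higher and 22 lower, and genes detected in ESC only gave 29 among 698 (4.15%), 13 higher and 16 lower. A gene at background in one state has no reliable change there, so these differences partly say where the gene could be measured. Of the 43, the tamoxifen effect was called in EpiLC only for 38, in ESC only for 4 and in opposite directions for 1. Of the 29, it was called in ESC only for 25, and in EpiLC only, in opposite directions, in the same direction and in neither state for 1 each. A call in the state without detection rests on values near background. For 33 of the 43 and 23 of the 29, the other state had 0 arrays with detection. Detection in at least 2 of 3 samples of a group, in place of all 3, gave 40 and 26, and detection on every array of a sample gave 49 and 25. The classes left 450 genes detected in neither state by this rule, 2 of them called (0.444%).

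Foxd4, a close relative of Foxd3 in the forkhead family, led the genes detected in EpiLC only. It had 8.26, 8.58 and 8.33 in EpiLC Tam, against 5.60, 6.40 and 6.72 in EpiLC EtOH, and was detected on 0 of 11 ESC arrays. The fitted difference was 2.07 (SE 0.31, adjusted p = 0.00862). Slc5a5, the sodium-iodide symporter, had 7.82, 8.11 and 7.82 in EpiLC Tam, against 5.96, 6.23 and 6.26 in EpiLC EtOH (difference 1.75, SE 0.18). Proc, the precursor of the anticoagulant protein C, was detected on 5 of 5 EpiLC Tam and 0 of 3 EpiLC EtOH arrays and was at least 1.35-fold higher with tamoxifen. Proc counts as detected in EpiLC through its Tam group alone. The EpiLC groups of these 3 genes did not overlap, which their choice by a called difference makes likely.

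Of the EpiLC-only genes that went down, Car14, a membrane carbonic anhydrase, had 8.43, 8.48 and 8.41 in Tam, against 9.54, 9.43 and 9.75 in EtOH (difference -1.08, SE 0.14, adjusted p = 0.00456). Bcl11b, a zinc finger transcription factor of T cells and neurons, had 7.05, 7.26 and 7.11 in Tam, against 7.81, 8.03 and 8.13 in EtOH (difference -1.32, SE 0.21). Avpr1a, a vasopressin receptor, was detected on 0 of 5 EpiLC Tam arrays and was at least 1.83-fold lower there than in EpiLC EtOH, and Ldb2, a cofactor of LIM-domain transcription factors, was at least 1.30-fold lower. The difference of Ldb2 was not called under equal medians (adjusted p = 0.0539). Celf4, an RNA-binding protein of neurons, had 5.15, 6.04 and 5.54 in Tam, against 6.43, 6.76 and 7.01 in EtOH (difference -1.36, SE 0.29). Celf4 kept its call only without EpiLC Tam sample 2 or EpiLC EtOH sample 1, and otherwise lost it without any 1 sample, at an adjusted p of up to 0.104.

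Kiss1, Pglyrp1 and Septin1 were detected in ESC only and fell there, as did Tgm1 above. Kiss1, the precursor of kisspeptin, had 6.15, 5.90 and 6.02 in ESC Tam, against 6.92, 6.87 and 7.34 in ESC EtOH (difference 1.17, SE 0.18, adjusted p = 0.00961). Pglyrp1, which binds bacterial peptidoglycan, had 9.84, 9.04 and 9.09 in ESC Tam, against 10.91, 10.21 and 10.65 in ESC EtOH (difference 1.55, SE 0.34). Septin1, a cytoskeletal GTPase, had 7.76, 7.72 and 7.56 in ESC Tam, against 8.50, 8.49 and 8.69 in ESC EtOH (difference 1.03, SE 0.23). The ESC groups of all 3 stood apart, which their choice by a called difference makes likely. For Slc41a3, a magnesium transporter with a difference of 1.17 (SE 0.27), the effect was called in neither state alone, but with the block in both (adjusted p = 0.00879 in EpiLC and 0.03 in ESC). Pglyrp1, Septin1 and Slc41a3 are close to the threshold: each lost its call without 9, 10 and 10 of the 12 samples, left out 1 at a time. Pglyrp1 kept it only without ESC Tam sample 1, ESC EtOH sample 2 or EpiLC EtOH sample 3 (adjusted p up to 0.087 otherwise), Septin1 only without EpiLC Tam sample 1 or 2 (up to 0.0981) and Slc41a3 only without ESC Tam sample 2 or ESC EtOH sample 1 (up to 0.115). Under equal medians none of the 3 was called, with adjusted p-values of 0.0579 for Pglyrp1, 0.0525 for Septin1 and 0.0604 for Slc41a3.

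Other ESC-only genes came up with tamoxifen. The predicted gene Gm648 was detected on 6 of 6 ESC Tam and 0 of 5 ESC EtOH arrays and was at least 2.12-fold higher in Tam (adjusted p = 4.09e-05). Slit2, a secreted guidance cue for axons, had 7.06, 6.89 and 7.02 in ESC Tam, against 5.80, 6.21 and 5.91 in ESC EtOH (difference -1.27, SE 0.15, adjusted p = 0.00334). Plch2, a phospholipase C, was at least 2.40-fold higher in ESC Tam and the dipeptidase Dpep3 at least 1.23-fold higher, both with 0 of 5 ESC EtOH arrays. The tight junction protein Cldn10 was detected on 3 of 6 ESC Tam arrays and no fold is given. Plch2 lost its call without any 1 ESC Tam sample, EpiLC Tam sample 3, EpiLC EtOH sample 1 or 2, or ESC EtOH sample 2 or 3 (adjusted p up to 0.0774). Dpep3 kept its call only without EpiLC Tam sample 2, EpiLC EtOH sample 3 or ESC EtOH sample 2 (up to 0.0818 otherwise).

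Of 17 tested interferon response genes, which cells induce against viruses through the STAT and IRF factors, 5 had a called positive difference and 0 a negative one, beside 1.41% and 1.18% of all genes. Of the 17, 7 were detected in both states, with 1 called and a median difference of 0.32, against -0.0033 over all genes detected in both. The other called members were not detected in ESC, so a rise in EpiLC fixes the sign of their difference. In EpiLC 10 rose and 1 fell (the antiviral Ifit2), beside 4.75% and 2.15% of all genes, and in ESC 1 rose (the peptide transporter Tap1), beside 5.58%. The guanylate-binding GTPases lay side by side on chromosome 3 and are near-copies, so their probes may share signal. Gbp2 had 11.83, 11.35 and 11.45 in EpiLC Tam, against 9.99, 9.81 and 9.44 in EpiLC EtOH (difference 1.78, SE 0.22, adjusted p = 0.00334). Gbp2b had 10.47, 9.60 and 9.74 in EpiLC Tam, against 8.40, 7.92 and 7.41 in EpiLC EtOH (difference 1.95, SE 0.35, adjusted p = 0.0181). Gbp3, named with Isg15 after their values were seen as the other called members, had 8.56, 8.45 and 8.77, against 7.27, 7.44 and 7.34 (difference 1.04, SE 0.20). Isg15, a ubiquitin-like modifier, had 8.11, 7.23 and 7.71 in EpiLC Tam, against 6.64, 6.64 and 6.63 in EpiLC EtOH (difference 1.22, SE 0.26). All 4 were detected on 0 of 11 ESC arrays.

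Irf1, a transcription factor of the interferon pathway, was the called member that both states expressed. It had 13.06, 13.07 and 13.11 in EpiLC Tam, against 12.30, 12.52 and 12.43 in EpiLC EtOH, and 10.35, 10.12 and 10.16 in ESC Tam, against 10.51, 10.21 and 10.38 in ESC EtOH. The EpiLC groups were apart and the ESC groups overlapped, with a difference of 0.82 (SE 0.14, adjusted p = 0.0151) that was not called under equal medians (0.51, adjusted p = 0.134). In the blocked fit the list had 7 positive calls and 0 negative ones, beside 12% of all genes in either direction.

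Promoters of the 4 called interferon genes that hold an interferon-stimulated response element are shown, because these genes moved together in EpiLC. The windows run from 250 bases before to 50 bases after the gene start in RefSeq (build GRCm38.p6), 5′ to 3′ on the gene's strand, with the matches to GAAANNGAAA or its reverse complement TTTCNNTTTC in capitals. The letters were chosen after the data were seen, both strands were searched, and adjacent matches may overlap.
Gbp2 (chr3:142620413-142620712, plus strand): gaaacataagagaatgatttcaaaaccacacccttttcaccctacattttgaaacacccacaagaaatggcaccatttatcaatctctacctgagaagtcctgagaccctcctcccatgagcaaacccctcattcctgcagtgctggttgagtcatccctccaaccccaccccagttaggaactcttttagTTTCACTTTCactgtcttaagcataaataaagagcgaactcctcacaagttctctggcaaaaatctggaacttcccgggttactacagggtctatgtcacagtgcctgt
Gbp2b (chr3:142594597-142594896, plus strand): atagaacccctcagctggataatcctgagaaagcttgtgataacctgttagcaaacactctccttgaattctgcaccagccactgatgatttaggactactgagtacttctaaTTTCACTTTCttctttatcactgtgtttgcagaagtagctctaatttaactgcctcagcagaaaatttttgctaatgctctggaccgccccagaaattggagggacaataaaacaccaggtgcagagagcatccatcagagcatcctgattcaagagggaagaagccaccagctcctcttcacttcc
Gbp3 (chr3:142559794-142560093, plus strand): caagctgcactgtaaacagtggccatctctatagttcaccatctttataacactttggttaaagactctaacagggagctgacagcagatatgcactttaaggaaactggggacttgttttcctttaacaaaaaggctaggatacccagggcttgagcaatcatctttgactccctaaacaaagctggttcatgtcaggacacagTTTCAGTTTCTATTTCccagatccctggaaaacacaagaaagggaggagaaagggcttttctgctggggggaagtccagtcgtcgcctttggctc
Isg15 (chr4:156200769-156201068, minus strand): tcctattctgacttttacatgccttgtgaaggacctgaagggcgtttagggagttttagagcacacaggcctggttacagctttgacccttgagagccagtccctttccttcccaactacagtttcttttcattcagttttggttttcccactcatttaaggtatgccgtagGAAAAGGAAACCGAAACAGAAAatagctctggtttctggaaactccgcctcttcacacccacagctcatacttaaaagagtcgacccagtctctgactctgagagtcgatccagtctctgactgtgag
The matches begin 59 bases before the start in Gbp2, 137 in Gbp2b, 45 and 39 in Gbp3 and 78 to 66 in Isg15. Irf1 holds none in its window. Of the 12 interferon genes without a called difference, 5 hold the letters (41.7%), as do 249 of 7076 tested genes with a promoter in the table (3.52%) and 3.44% of all windows. The forkhead core TGTTTAC or its reverse complement GTAAACA is in 6 of 180 promoters of genes with a called difference (3.33%), against 213 of 7076 tested (3.01%). These are 5 of 90 promoters of genes with a positive difference (5.56%) and 1 of 90 with a negative one (1.11%), and Gbp3 is among the 5, with gtaaaca in lower case in its window. A match is a description of the window and says nothing of binding.

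Of 19 trophoblast genes tested, among them transcription factors and keratins of the early placenta, 13 rose in EpiLC (beside 4.75% of all genes) and 6 in ESC (beside 5.58%), with 0 falls. The difference itself was called positive for 2 and negative for 1, beside 1.41% and 1.18%, and the counts of 13 and 6 are not a test of it. Of the 15 detected in both states, 13 had values above 0, with a median of 0.35, beside 3801 of all 7667 genes detected in both. Such counts of signs, here and in the lists below, shift with the scaling. Under equal medians the median difference over all genes was -0.18. Ascl2, a helix-loop-helix factor of the spongiotrophoblast, had 7.71, 7.79 and 7.97 in EpiLC Tam, against 6.51, 6.82 and 7.09 in EpiLC EtOH, and was at background in ESC (difference 1.13, SE 0.23, adjusted p = 0.0273). Tead4, which starts the trophectoderm programme, had 6.95, 7.03 and 7.32 in EpiLC Tam, against 6.74, 6.48 and 6.54 in EpiLC EtOH, and 8.85, 9.28 and 9.16 in ESC Tam, against 9.39, 9.48 and 9.48 in ESC EtOH (difference 0.86, SE 0.18, adjusted p = 0.0326). The member with a negative difference was Id2. Gata2 and Wnt7b rose in both states with differences of 0.19 (SE 0.24) and 0.21 (SE 0.21) that were not called. With the block 8 were higher and 1 lower, beside 12% of all genes. Among the 8 was Krt8 (difference 1.03, adjusted p = 0.00243), which was not called without the block (0.0832). Ascl2 lost its call without any 1 ESC Tam sample, ESC EtOH sample 1 or 3, or EpiLC Tam sample 3 (adjusted p up to 0.0722). Tead4 kept it only without EpiLC Tam sample 1, EpiLC EtOH sample 1 or ESC Tam sample 2 (up to 0.0818 otherwise).

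Of 16 naive pluripotency factors 2 were called positive and 0 negative, beside 1.41% and 1.18% of all genes. The 14 detected in both states had a median difference of 0.41, with 10 values above 0, beside 3801 of all 7667 genes detected in both. Klf5 had 11.48, 11.10 and 11.25 in EpiLC Tam, against 10.73, 10.61 and 10.63 in EpiLC EtOH, and 12.08, 12.16 and 12.18 in ESC Tam, against 12.48, 12.46 and 12.42 in ESC EtOH. Its groups were apart in both states, in opposite directions, though the ESC change was called only with the block (-0.31, SE 0.10, adjusted p = 0.0668, and 0.0224 with the block), and the difference was 0.93 (SE 0.14, adjusted p = 0.00705). Tbx3, a T-box factor of naive cells, had 8.36, 8.85 and 8.75 in EpiLC Tam, against 7.41, 7.76 and 7.33 in EpiLC EtOH, and 11.78, 11.79 and 11.73 in ESC Tam, against 11.54, 11.45 and 11.38 in ESC EtOH (difference 0.84, SE 0.19, adjusted p = 0.0462). Tbx3 signal is far higher in ESC, so on the linear scale its difference of effects turns negative (-449.8 units). Tbx3 kept its call only without EpiLC Tam sample 1 or EpiLC EtOH sample 2, and lost it without any other single sample, at an adjusted p of up to 0.112. It was not called under equal medians either (0.74, adjusted p = 0.0995). Nanog lay the other way, at -0.59 (SE 0.21, adjusted p = 0.18, and 0.0163 with the block). With the block 6 of the list were higher and 1 lower, beside 12% of all genes.

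Of 16 formative and primed genes 1 was called, beside 2.59% of all genes. It was Car4, a carbonic anhydrase, with 12.27, 12.35 and 12.07 in EpiLC Tam, against 10.98, 11.28 and 10.70 in EpiLC EtOH, and 0 ESC arrays with detection (difference 1.19, SE 0.20, adjusted p = 0.0118). With the block 3 were higher and 1 lower, beside 12% of all genes. Fgf5, the growth factor that marks the formative state, was detected in EpiLC only and had a difference of 0.54 (SE 0.13, adjusted p = 0.0574, and 0.0272 with the block). The transcription factor Tcf15 had a difference of 0.58 (SE 0.22, adjusted p = 0.202, and 0.0492 with the block), and the junction protein Cldn6 had -0.67 (SE 0.25, adjusted p = 0.209, and 0.0115 with the block). Of 15 shared pluripotency genes 0 were called by limma in either direction, and also 0 with the block, with 4 under an unadjusted p of 0.05: Mybl2 at 0.39 (SE 0.12), Gdf3 at 0.33 (SE 0.12), Sall4 at 0.26 (SE 0.10) and Pou5f1 at 0.30 (SE 0.11). Pou5f1, the central pluripotency factor Oct4, had 13.15, 13.33 and 13.17 in EpiLC Tam, against 13.17, 13.27 and 13.23 in EpiLC EtOH, and 13.36, 13.26 and 13.38 in ESC Tam, against 13.63, 13.66 and 13.64 in ESC EtOH. Its ESC groups did not overlap, and its difference had an adjusted p of 0.194 with a 95% interval of 0.06 to 0.55.

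The Nodal and TGF-beta response list gave both directions. Of its 10 genes, the difference was called positive for Lefty1 and Lefty2 and negative for Id2, beside 1.41% and 1.18% of all genes. The list median was 0.16. Under equal medians, relative to all genes, the median was 0.06. Lefty2 had 9.29, 9.13 and 9.22 in EpiLC Tam, against 9.32, 9.64 and 9.47 in EpiLC EtOH, and 8.87, 9.04 and 9.10 in ESC Tam, against 10.22, 9.93 and 10.34 in ESC EtOH. It fell in ESC by 1.16 (SE 0.12), the difference was 0.90 (SE 0.17, adjusted p = 0.0209), and the call was lost without EpiLC Tam sample 3, ESC Tam sample 1 or ESC EtOH sample 1 or 3 (adjusted p up to 0.0596) and under equal medians (0.67, adjusted p = 0.0745). The ligand Nodal itself had a difference of -0.10 (SE 0.10). Among 8 Wnt targets and 13 FGF and ERK response genes, cyclin D1 (Ccnd1), which is on both lists, was called positive, beside 1.41% of all genes. Ccnd1 had 12.95, 12.88 and 12.83 in EpiLC Tam, against 13.02, 12.99 and 12.92 in EpiLC EtOH, and 12.06, 12.11 and 12.05 in ESC Tam, against 12.76, 12.71 and 12.68 in ESC EtOH. Its fall of 0.65 in ESC (SE 0.07) gave a difference of 0.56 (SE 0.10, adjusted p = 0.0181), which was 0.34 and not called under equal medians (adjusted p = 0.202). The Wnt target Sp5, a zinc finger factor, had a difference of 1.32 (SE 0.68, adjusted p = 0.36, and 0.00879 with the block). Of 10 Notch pathway genes 1 was called negative, beside 1.18% of all genes. It was the receptor Notch3 at -0.88 (SE 0.18), with 7.87, 7.75 and 7.69 in ESC Tam, against 6.71, 6.99 and 7.17 in ESC EtOH. Nrarp, a feedback inhibitor of Notch, had a difference of -0.72 (SE 0.23, adjusted p = 0.146, and 0.00462 with the block). Notch3 kept its call only without EpiLC Tam sample 3, EpiLC EtOH sample 1 or 2, or ESC EtOH sample 3 (adjusted p up to 0.0772 otherwise).

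Of 18 targets of p53, 2 rose in EpiLC and 8 in ESC, beside 4.75% and 5.58% of all genes. The difference was called negative for 2, Pmaip1 and the death receptor Fas, beside 1.18%, and positive for 0. Values above 0 were 6 of 18, beside 4596 of 9422 over all genes. The list's median was -0.18, and -0.19 relative to all genes under equal medians. The death receptor Tnfrsf10b lay the other way, at 1.23 (SE 0.41, adjusted p = 0.16, and 0.00639 with the block). Fas was detected on all Tam and no EtOH arrays of both states. It was at least 1.49-fold higher in EpiLC Tam and at least 1.71-fold higher in ESC Tam, and the fitted difference was -0.80 (SE 0.18, adjusted p = 0.0462). Two-cell-like genes mark a rare state of ESC in culture akin to the cleavage-stage embryo. Of 10 tested, 3 rose in EpiLC and 6 in ESC (beside 4.75% and 5.58% of all genes). Differences were below 0 for 9, while over all genes 4596 of 9422 were above 0. The call was negative for 1 (beside 1.18%). That was Tdpoz4, with 8.56, 9.02 and 9.14 in EpiLC Tam, against 8.26, 9.00 and 8.67 in EpiLC EtOH, and 8.19, 8.16 and 7.72 in ESC Tam, against 6.44, 6.46 and 6.63 in ESC EtOH (difference -1.25, SE 0.28, adjusted p = 0.0438). Arg2, an arginase, had -0.97 (SE 0.24, adjusted p = 0.0656, and 0.013 with the block). Fas and Tdpoz4 each lost the call without 10 of the 12 samples, left out 1 at a time. Fas kept it only without ESC Tam sample 2 or ESC EtOH sample 2 (adjusted p up to 0.113 otherwise), and Tdpoz4 only without EpiLC EtOH sample 1 or ESC Tam sample 3 (up to 0.119).

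Of 12 primitive endoderm genes 1 was called negative, Gata6, beside 1.18% of all genes, and 7 differences were above 0, with a list median of 0.15. The 10 detected in both states had a median of -0.13, with 5 values above 0 and 5 below. Dab2, an endocytic adaptor of that lineage, had a difference of -0.94 (SE 0.24, adjusted p = 0.0721, and 0.0338 with the block). Fst, the activin inhibitor follistatin, which counted as detected in EpiLC only, had a difference of 0.79 (SE 0.21, adjusted p = 0.0778, and 0.0141 with the block). That difference came from ESC, where Fst fell by 0.76 (SE 0.15), against a change of 0.04 (SE 0.15) in EpiLC. Only 1 of 6 ESC Tam and 3 of 5 ESC EtOH arrays detected Fst, so the size of the fall depends on the background. With the block 2 of the list were higher and 2 lower, beside 12% of all genes. Summed intensity of 12 primitive endoderm markers was 2436 to 3429 in EpiLC Tam, 2476 to 2700 in EpiLC EtOH, 3400 to 4593 in ESC Tam and 1978 to 2382 in ESC EtOH, and Sox17, Gata4 and Foxa2 were detected in no ESC group. In bulk RNA a change in the number of cells of a type and a change in RNA per cell cannot be told apart. Of 8 neural crest and border genes 2 were called positive, Edn1 and the neurotrophin receptor Ngfr, beside 1.41% of all genes. The 7 detected in both states had differences above 0 (median 0.53), beside 3801 of all 7667 genes detected in both. Ngfr had 7.54, 7.24 and 7.24 in EpiLC Tam, against 6.75, 6.62 and 6.70 in EpiLC EtOH, and 9.58, 9.64 and 9.82 in ESC Tam, against 9.87, 9.79 and 10.05 in ESC EtOH (difference 0.87, SE 0.16, adjusted p = 0.0175). The homeobox factor Msx1 had 1.19 (SE 0.31, adjusted p = 0.0751, and 0.042 with the block). Summed intensity of the 10 fibroblast markers was 1067 to 1406 in EpiLC Tam, 965.9 to 1058 in EpiLC EtOH, 2342 to 2477 in ESC Tam and 1939 to 2081 in ESC EtOH. The sum was higher with tamoxifen in both states with no overlap, and its part in other results was not tested. Acta2, the highest of the 10 in every group, had log2 means of 9.39 in Tam and 8.77 in EtOH in EpiLC, and 10.95 and 10.55 in ESC. Thy1, the only other marker detected in ESC, went the other way, at 6.91 and 7.49 in EpiLC and 7.52 and 8.05 in ESC. In EpiLC Dcn and Tagln were also detected, at 7.08 and 7.17 in Tam and 7.02 and 6.25 in EtOH. Of 5 fibroblast genes tested 1 was called positive, beside 1.41% of all genes. It was Vim, a filament protein that many cell types express, at 0.88 (SE 0.17) through a fall in ESC. Vim lost its call without ESC EtOH sample 2 or 3 (adjusted p up to 0.0565).

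Of 15 imprinted genes 2 were called positive, beside 1.41% of all genes: Ascl2 and Igf2, the growth factor expressed from the paternal allele. Igf2 had 12.88, 13.13 and 13.12 in EpiLC Tam, against 11.90, 12.19 and 12.07 in EpiLC EtOH, and 9.53, 9.28 and 9.13 in ESC Tam, against 9.43, 9.27 and 9.22 in ESC EtOH. The EpiLC groups were apart, the ESC groups overlapped, and the difference was 0.98 (SE 0.17, adjusted p = 0.0167), which was 0.66 and not called under equal medians (adjusted p = 0.107). Of 10 germline genes Dnd1 was called positive, and of 14 forkhead genes Foxd4, each beside the same 1.41%. In the remaining lists 0 differences were called by limma: 8 mesoderm and definitive endoderm genes (all with values above 0, median 0.37), 3 neuroectoderm, 13 sterol, 16 hypoxia and glycolysis, 17 stress, 12 cell cycle, 13 histone acetylation and Brg1 complex and 12 ribosomal protein genes. With the block 2 mesoderm, 1 sterol, 1 hypoxia, 1 stress, 1 cell cycle and 1 acetylation gene were called, beside 12% of all genes. The ribosomal proteins had differences between -0.31 and 0.15. Over all genes tested, 4596 of 9422 values were above 0, beside all 8 of the mesoderm list.

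**Figure D4:**
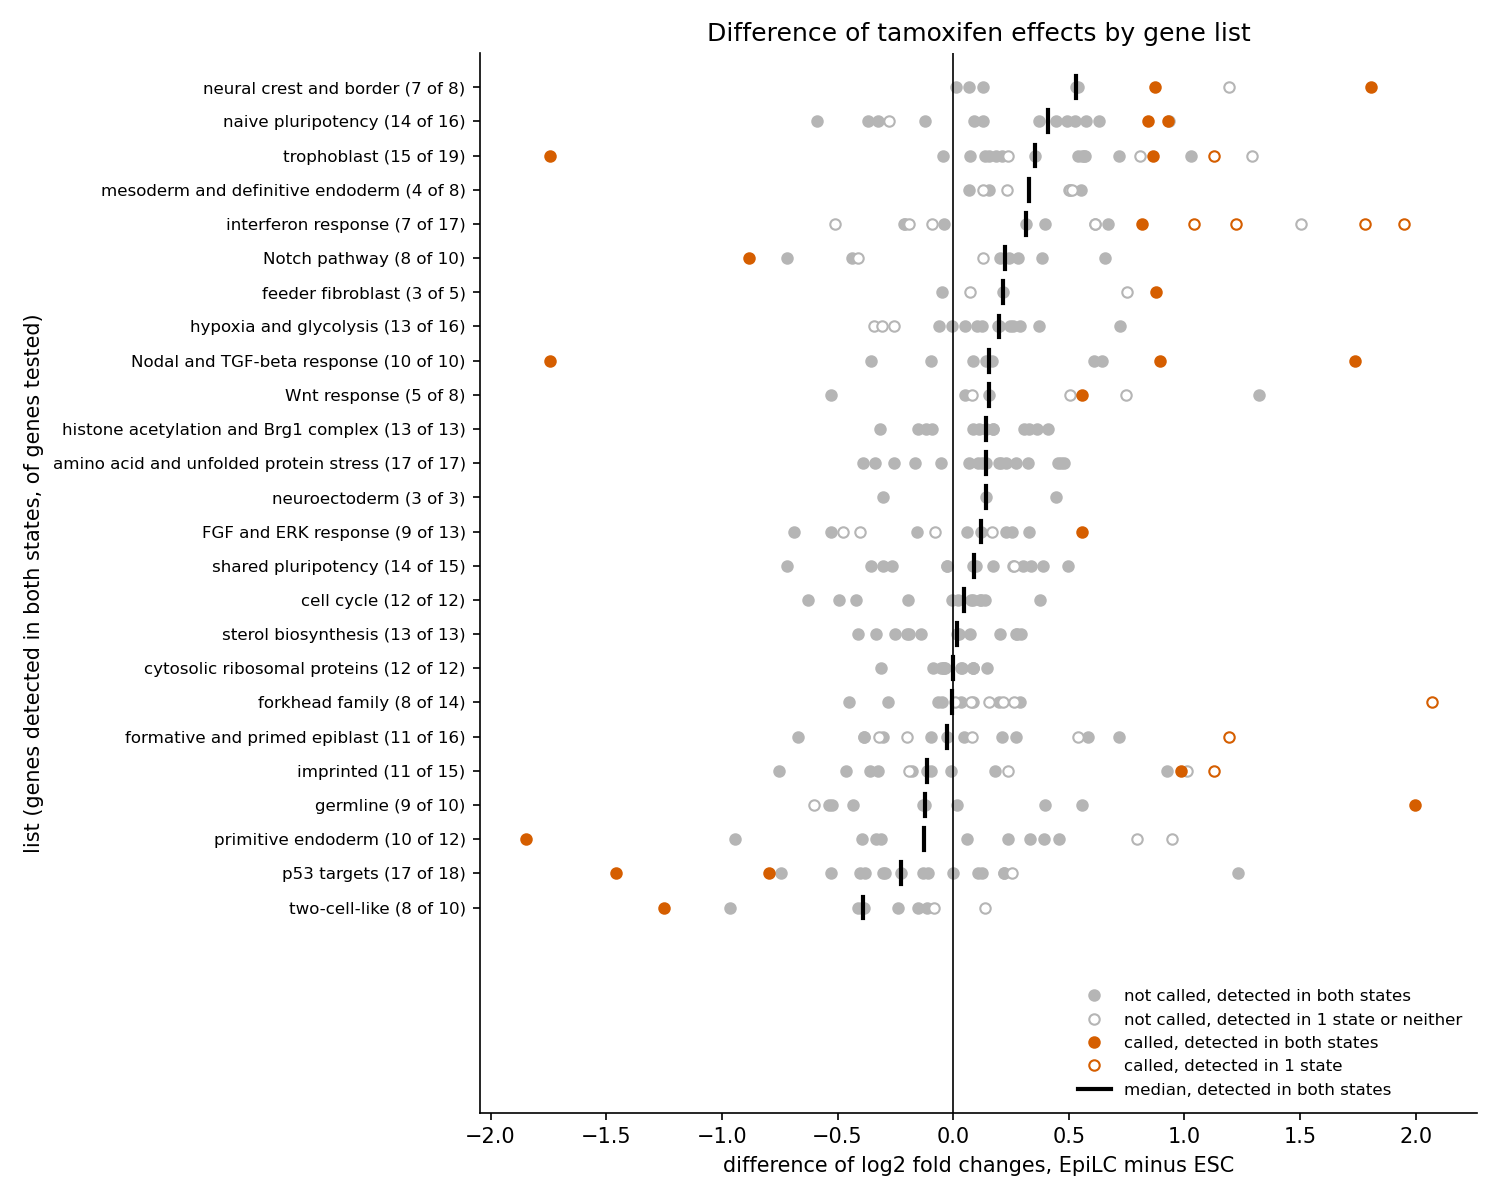
Difference of log2 fold changes, EpiLC minus ESC, for each tested gene of 25 lists (points), filled where the gene was detected in both states, with bars at the median of those and their number of all tested in brackets. Of the called interferon genes 1 is filled and 4 are open, and the bar is at 0.32.

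The genes that moved most in both states in one direction show what was shared. Secretin (Sct), a peptide hormone, had 11.54, 11.20 and 11.68 in EpiLC Tam, against 10.06, 9.58 and 10.33 in EpiLC EtOH, and 10.13, 10.27 and 10.18 in ESC Tam, against 8.07, 8.61 and 8.16 in ESC EtOH. Its difference of effects was -0.44, with a 95% interval of -1.05 to 0.17. Sfn, a 14-3-3 protein of epithelia, had 11.26, 10.79 and 11.21 in EpiLC Tam, against 9.60, 9.10 and 9.24 in EpiLC EtOH, and 9.37, 8.92 and 9.18 in ESC Tam, against 7.43, 7.88 and 7.86 in ESC EtOH, with a difference of 0.34 (-0.23 to 0.91). Both genes kept a higher level in EpiLC than in ESC with either treatment. The intervals were -0.79 to 0.64 for Gpat3, a glycerol phosphate acyltransferase, and -0.73 to 0.34 for Urgcp. For the germ cell factor Nanos3 the interval was -0.67 to 0.70 around 0.02, but it was detected on 0 of 3 EpiLC EtOH arrays, where it was at least 1.69-fold lower than in EpiLC Tam. Cstdc1, a cystatin-like protein, was likewise detected on 0 of 3 EpiLC EtOH arrays, and its EpiLC Tam level was at least 1.23-fold higher (interval -0.83 to 0.47). These intervals are wide beside the effects, and equal effects are not shown for any of these genes.

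The other 4 genes of this set were called as different in the blocked fit. Tfap2c, an AP-2 transcription factor of germ cells and placenta, had 12.39, 12.79 and 12.73 in EpiLC Tam, against 10.70, 11.37 and 11.26 in EpiLC EtOH, and 12.69, 12.70 and 12.84 in ESC Tam, against 11.61, 11.86 and 11.84 in ESC EtOH. Its difference was 0.56 (SE 0.24), with an adjusted p of 0.265, and of 0.0234 with the block. Sytl1, a vesicle trafficking protein detected on 2 of 5 ESC EtOH arrays, had -0.97 (adjusted p = 0.0815, and 0.0111 with the block). Ltb4r1, a leukotriene receptor, had -0.45 (0.307, and 0.0404 with the block). Cpz, a carboxypeptidase detected on 0 of 5 ESC EtOH arrays, had a fitted -0.68 (0.186, and 0.0222 with the block). At the other end, 8 genes moved the same way in both states by unequal amounts, all of them further in ESC by the fitted values. Fas, Ddit4l, Gpx3, Phf11a, Them5 and Tuft1 rose, and Bahcc1 and Pla2g1b fell. Them5 counted as detected in ESC only, and Fas was detected on no EtOH array of either state. The unequal amounts of Them5 and Fas thus depend on the background. Phf11a had 5.69, 5.64 and 5.56 in ESC EtOH. These are levels like those of Gm648 (5.46, 5.70 and 5.51), which 0 of 5 ESC EtOH arrays detected. The size of the Phf11a rise in ESC may therefore depend on the background too. Bahcc1 had -0.39 in EpiLC and -1.38 in ESC (difference 1.00, SE 0.13, adjusted p = 0.0047). These 8 were named after their values were seen.

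**Figure D5:**
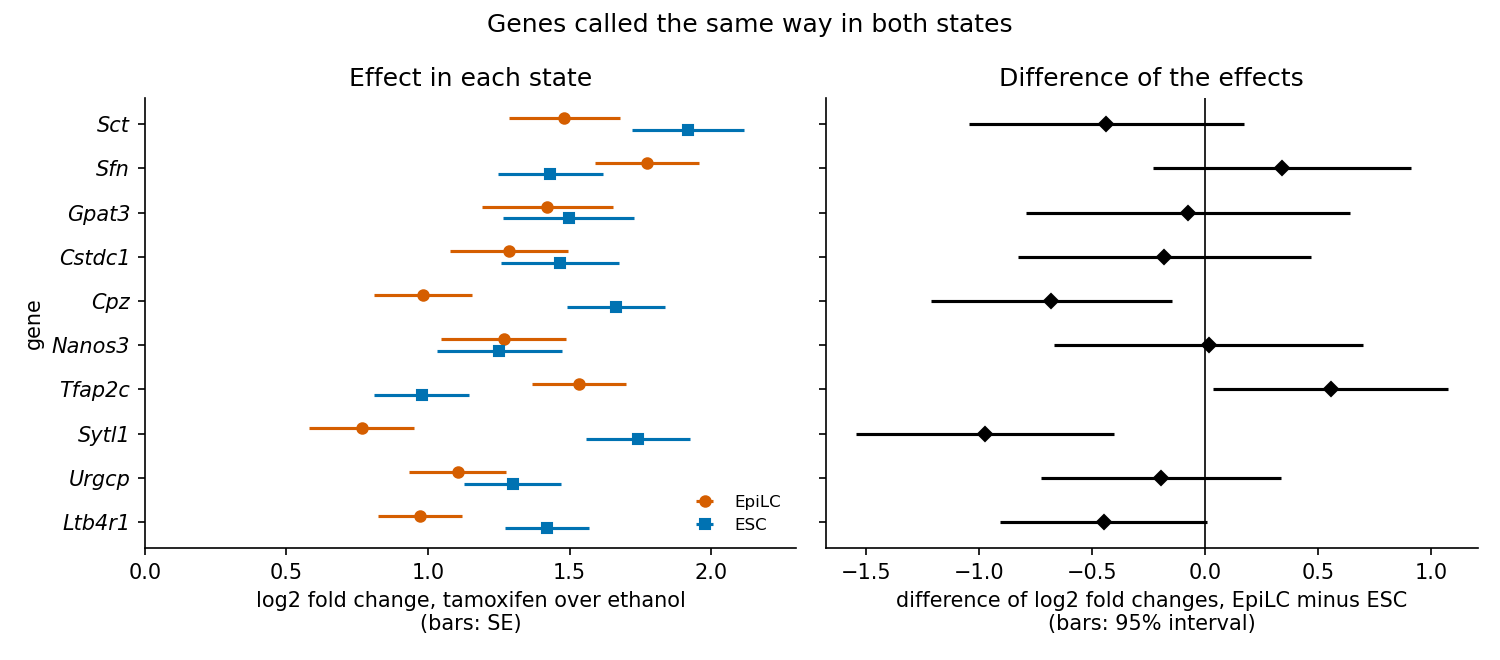
Left, log2 fold change of tamoxifen over ethanol in EpiLC (circles) and ESC (squares) for the 10 genes with the largest effects in both states and no call for the difference, with SE as bars. Right, the difference of the effects, EpiLC minus ESC, with its 95% interval, which includes 0 for 7 of the 10 genes.

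The threshold divides neighbours of almost equal value. Just inside it lay Mab21l2 with a difference of 0.88 (adjusted p = 0.0488), Gprasp1 with 0.52 (0.0497) and Amhr2 with 0.88 (0.0499). Just outside lay Slc34a3 with -0.87 (0.0505), Arhgef25 with 0.65 (0.0508) and Pcolce2 with 0.64 (0.0511).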

How the data were processed

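RNA of 12 samples was read on Illumina mouse bead arrays, 19 arrays in all, 11 in hybridization round 1 and 8 in round 2, with 7 samples in both. The authors deposited the average signal intensity per probe and a detection p-value per probe, and a normalized table that was used as an alternative; limma is named in the submitters' processing notes. From the deposited intensities, neqc in limma 3.58.1 (R 4.3.3) corrected the background with the detection p-values (offset 16), quantile-normalized all arrays and took log2. Arrays of a sample were combined by a fit of sample and round per probe. Probes detected (p under 0.01) on at least 3 arrays were kept, and the probe with the highest mean stood for its gene, giving 9422 genes. Of 2231 genes with several kept probes, 0 had called probes in opposite directions. A sample detected a gene on at least 50% of its arrays, and a state when all 3 samples of a group did. Probes were named through the platform annotation and RefSeq.

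Group means were fitted with lmFit and eBayes over all 4 groups, with Benjamini-Hochberg adjustment at 0.05 over all genes. The exact test of 3 against 3 samples cannot go below 0.1 and was not used. Same-numbered tamoxifen and ethanol samples deviated together (r of 0.497 to 0.567 in EpiLC and 0.371 to 0.470 in ESC), so the numbers were taken to pair the samples within a state and the fit with the number as a block is given where it changes the call of a difference described in the text. The difference of effects, the gene lists and the members were chosen with earlier results of these data known. Named genes were those with the largest differences (10 each way in both states, 5 each way in each one-state class), the 10 largest of opposite sign, the 10 largest shared effects, and the 3 lowest p-values of each list. The code was tested on simulated data.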

Additional observations from a re-analysis of the deposited data

Results flagged for a closer look

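The effect of tamoxifen differed between EpiLC and ESC for 244 genes by limma's test of the difference itself. The named genes among them follow, each with its difference of log2 fold changes, EpiLC minus ESC. For genes detected in 1 state only, or at background in 1 group, the value depends on the background. The highest differences were those of Pdzk1 2.28, Foxd4 2.07, Dnd1 2.00, Gbp2b 1.95, Edn1 1.80, Tgm1 1.78, Gbp2 1.78, Pcolce 1.76 and Slc5a5 1.75. Lower positive values belonged to Lefty1 1.74, Acap1 1.68, Proc 1.65, Pglyrp1 1.55, 1190005I06Rik 1.54, Pisd-ps2 1.44, Plcd1 1.41, Ahnak 1.37 and Car4 1.19. Next came Kiss1 1.17, Slc41a3 1.17, Ascl2 1.13, Usp11 1.09, Irak3 1.06, Alpk3 1.05, Septin1 1.03, Igf2 0.98 and S1pr2 0.97. The remaining positive values were those of Mapt 0.97, Klf5 0.93, Lefty2 0.90, Vim 0.88, Ngfr 0.87, Tead4 0.86, Tbx3 0.84, Irf1 0.82 and Ccnd1 0.56. The most negative differences were those of Gata6 -1.85, Fgfbp3 -1.84, Id2 -1.74, Eef1a2 -1.71, Rgcc -1.64, Pmaip1 -1.46, Gpnmb -1.40, Mob3b -1.40 and Hsd17b1 -1.36. Smaller negative values belonged to Celf4 -1.36, Gm648 -1.33, Bcl11b -1.32, AA467197 -1.31, Avpr1a -1.31, Slit2 -1.27, Tdpoz4 -1.25, Plch2 -1.20 and Pgm2l1 -1.20. The remaining negative values were those of Dpep3 -1.19, Cldn10 -1.18, Ldb2 -1.08, Car14 -1.08, Notch3 -0.88 and Fas -0.80. What these differences rest on was not tested, and no explanation is weighed here.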

How the results depend on the processing

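Precision is limited by 3 samples a group, by probes near background and by the round, since EpiLC EtOH was hybridized in round 1 alone. The difference of effects was called for 244 genes (133 higher, 111 lower), and single-state effects for 651 in EpiLC and 857 in ESC. Equal medians gave 78 higher and 257 lower. The authors' deposited normalized table gave 396 (215 higher, 181 lower), with 1071 in EpiLC. Probes detected on all 19 arrays, a smaller set of genes, gave 159, 65 of them lower. The arrays of round 1 gave 82 (49 higher, 33 lower), with 365 in EpiLC and 406 in ESC. The replicate block gave 1135 (549 higher, 586 lower), with 1872 in EpiLC and 2040 in ESC, and all 244 kept their call. Array weights gave 1448 in ESC. Leaving out 1 sample, or 1 number of a state, gave 35 to 198 genes for the difference (18 to 112 higher, 17 to 91 lower), 202 to 627 for EpiLC and 282 to 931 for ESC. Of 60 named called genes, 17 lost the call without at least 1 sample, 44 when leaving out 1 number of a state is counted too, and 0 changed sign in any of these. Equal medians lost 10 of the 60, the block lost 0 and called a further 24 named genes. On the linear scale Lefty1 turned to -587.7 and Tbx3 to -449.8 units, since both have far higher levels in one state. Other causes were not tested. The slide as a block was not run because the headers name no slides.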
